A study of Hydra vulgaris with 12 samples.

Results

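The upper trunk of Hydra that had lost their heads 12 h before was compared with trunk tissue taken at the moment of bisection. The animals were Hydra magnipapillata of strain 105, given by the organism label as Hydra vulgaris. A Hydra polyp is a tube of 2 epithelial layers that also holds interstitial stem cells, nerve cells and stinging cells, and it can rebuild a head within days. Signals from the head organizer, among them secreted Wnt ligands, are known to act early in this process. Per the labels, 50 to 100 budding animals starved for 1 day were pooled for each sample and cut between the uppermost trunk region, R1, and the next, R2. The R2 and R3 tissue was then taken after 0 h (replicates 1 and 2) or 12 h (replicates 1 and 2), although the tissue label reads regenerating head. No agent or transgene is named in the labels.

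Poly(A) RNA was sequenced, and the authors deposited RPKM, reads divided by the length of the transcript and by the number of mapped reads. Transcripts entered the comparison if 2 or more of the 12 libraries of the series read 1 RPKM or higher; the other libraries are those of 2, 4, 6 and 48 h. This left 14283 of 17353 transcripts. Of the 3070 left out, 224 were listed at 0 in all 12 libraries. Read depth is unknown for these values. Identifiers are RefSeq transcript accessions, and 1 of them, that of Wnt3, could be paired with a gene name, so most of the results concern transcripts of unknown identity. For the same reason the tissue could not be checked against markers of its cell types. Animals left uncut for 12 h are not among the samples, so effects of the cut and of 12 h of keeping cannot be told apart.

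Replicates of both times differed more from each other than those of 2, 4 and 6 h. The log2 difference between replicates had an SD over transcripts of 0.732 at 0 h and 0.756 at 12 h, against 0.425 to 0.481 at 2, 4 and 6 h and 1.02 at 48 h. A replicate difference of at least 1 on the log2 scale was seen in 10.7% of transcripts at 0 h and 12.1% at 12 h. The 4 correlations between a 0 h and a 12 h library lay between 0.862 and 0.898 across transcripts, below both the 0 h pair (0.948) and the 12 h pair (0.946). 0 h replicate 1 had 16850 transcripts above 0 RPKM and 0 h replicate 2 had 15519; the 12 h libraries had 16029 and 15668.

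At 12 h, 787 transcripts had risen and 1848 had fallen relative to 0 h, which is 5.51% and 12.9% of those tested and 18.4% together. A call needed a limma adjusted p below 0.05 and a log2 fold change, on values of log2(RPKM + 1), of 1 or more in size. With the values as deposited, large changes made up a larger share of the rises than of the falls. The median log2 fold change of the rises was 1.67 (quartiles 1.28 and 2.24), and 255 of them, or 32.4%, reached 2, a fold of 4 on this scale. The median of the falls was −1.36 (quartiles −1.70 and −1.17), and 251, or 13.6%, reached −2. A change of at least 4 in size was reached by 43 rises and 18 falls, and one of at least 8 by 1 rise and 2 falls. The shares depend on the length of each list, which changed with the scaling of the libraries. In bulk tissue, fewer cells of a type and less RNA per cell cannot be told apart.

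**Figure D1:**
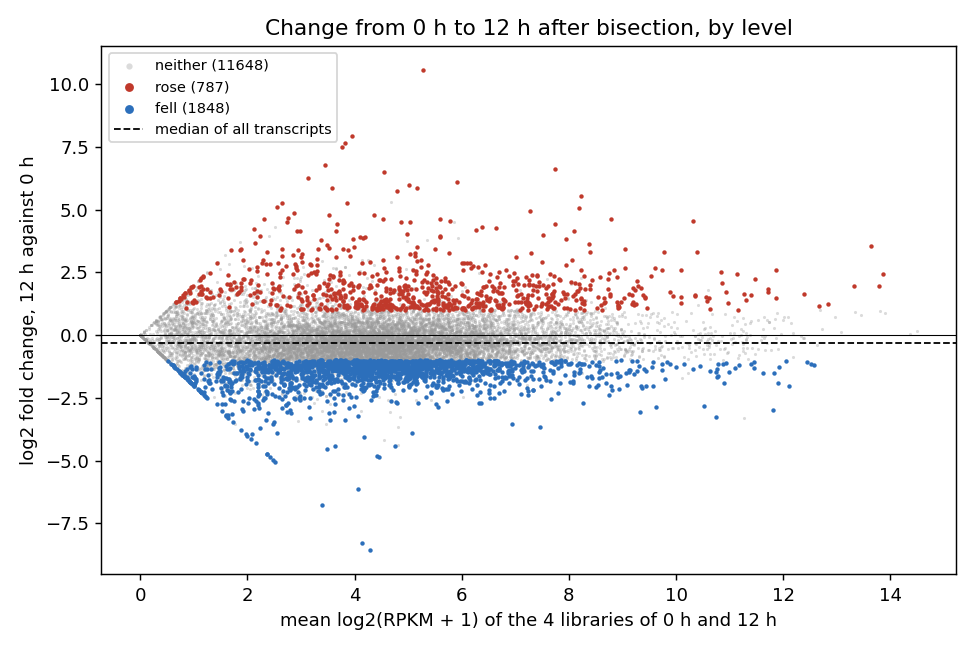
Log2 fold change from 0 h to 12 h of each of 14283 transcripts (points), on the scale of log2(RPKM + 1), against the mean level of the 4 libraries. The 787 rises (red) had a median of 1.67 and the 1848 falls (blue) one of −1.36, and their ranges of size overlapped. The dashed line, the median of all transcripts, lies at −0.319.

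The number of falls depended on how libraries were scaled. The median log2 fold change of all transcripts was −0.319, so a transcript that followed the bulk already counted as lower. Median-ratio scaling, which sets the typical transcript of all libraries to the same level, moved the median to −0.000699 and gave 1293 rises and 768 falls. The share of rises among all calls went from 29.9% to 62.7%. Quantile normalization gave 1122 rises and 1003 falls, or 52.8% rises. Under all 3 scalings, 774 of the 787 rises and 735 of the 1848 falls were called. Over all 23 alternative fits, which also change the pseudocount, the filter and the libraries included, 358 rises and 492 falls were called each time. Measured from the median transcript, 1015 of the 1848 falls were at least 1 lower on the log2 scale.

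Among the transcripts that rose or fell, the 12 h libraries lay outside the range of the 0 h libraries in every case. Over all transcripts tested, both 12 h libraries lay above both 0 h libraries in 18.7% and below in 47.0%, so lack of overlap alone was common. A further description takes the nearest pair of libraries. By that measure 506 of the 787 rises and 1057 of the 1848 falls were at least 2 times apart after adding 1 RPKM, and 131 rises and 92 falls at least 4 times. The lists were chosen on these same libraries, and the count over all transcripts was not made, so these counts lend the calls no support. The fit shares 1 estimate of the spread over all 6 times. Fitted to the 4 libraries of 0 h and 12 h alone, limma called 532 rises and 1164 falls, of which 505 and 1107 were among those above. Without 0 h replicate 2 the counts were 511 and 1214.

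How often weak and abundant transcripts were called depended on the libraries used to grade them. Graded by the mean of the 2 h libraries, which lie outside the comparison, 5.12% of 1366 transcripts below 2 RPKM rose and 5.42% fell. Between 2 and 10 RPKM 4.54% rose and 11.6% fell, between 10 and 50 RPKM 4.74% and 14.3%, and from 50 to 200 RPKM 7.32% and 14.4%. At 200 RPKM or more, 92 of 958 transcripts rose (9.60%) and 153 fell (16.0%). After median-ratio scaling the rises went from 5.34% in the weakest group to 16.2% in the most abundant and the falls from 3.37% to 8.87%. Graded by the 0 h libraries, 8.41% of the weakest and 7.34% of the most abundant group rose, and 1.18% and 18.4% fell. Graded by all 12 libraries, the rises went from 2.38% to 16.4% and the falls from 6.29% to 11.9%. Both of the last gradings contain libraries of the comparison, so a change moves its own transcript between groups. The gradings by 1 time were chosen after seeing the data. The median standard error (SE) of a log2 fold change shrank from 0.538 in the weakest to 0.192 in the most abundant group of the 12-library grading, and the part of this precision in the shares was not tested.

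**Figure D2:**
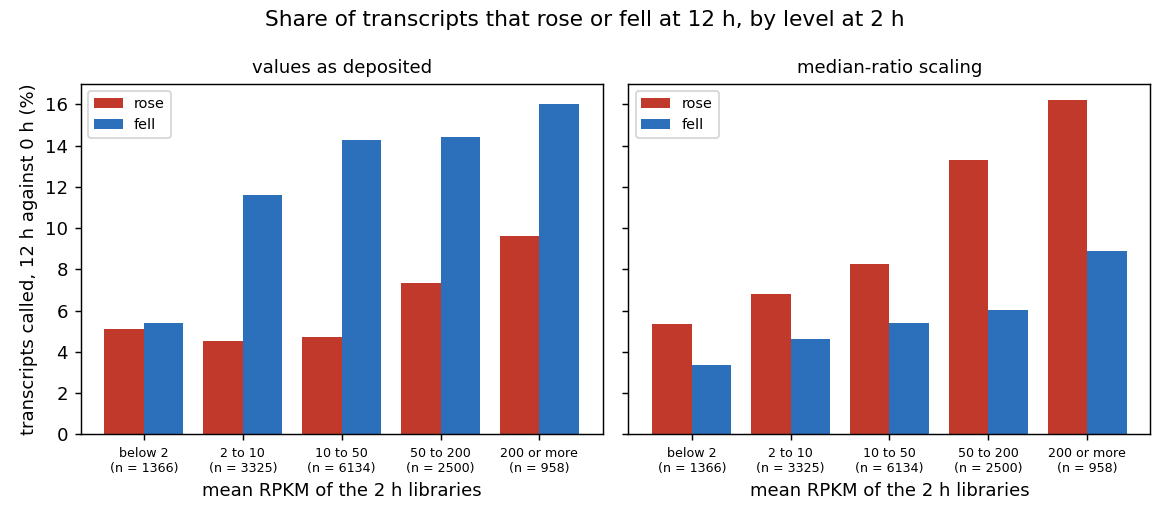
Percentage of transcripts that rose (red) or fell (blue) at 12 h in 5 groups of mean RPKM at 2 h, with the values as deposited (left) and after median-ratio scaling (right). In the most abundant group the bars stand at 9.60% and 16.0% on the left and at 16.2% and 8.87% on the right.

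The transcripts that rose took up a much larger part of the summed RPKM at 12 h. RPKM is divided by transcript length, so this is not a share of reads. Together they held 7.16% and 7.20% of the summed RPKM of the 0 h libraries and 28.4% and 25.9% of that of the 12 h libraries. The transcripts that fell held 20.9% and 21.8% at 0 h and 6.92% and 7.18% at 12 h. These shares describe lists chosen on the same 4 libraries and were not tested. The choice also favours low 0 h values for the rises and high ones for the falls, which bears on any comparison with 0 h. In the other libraries the transcripts that rose held 9.49% and 10.5% at 2 h, 24.1% and 24.3% at 4 h, 23.7% and 25.6% at 6 h, and 16.2% and 16.3% at 48 h. Among these 8 libraries, the shares of 4 h and 6 h lay above those of 2 h and 48 h.

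**Figure D3:**
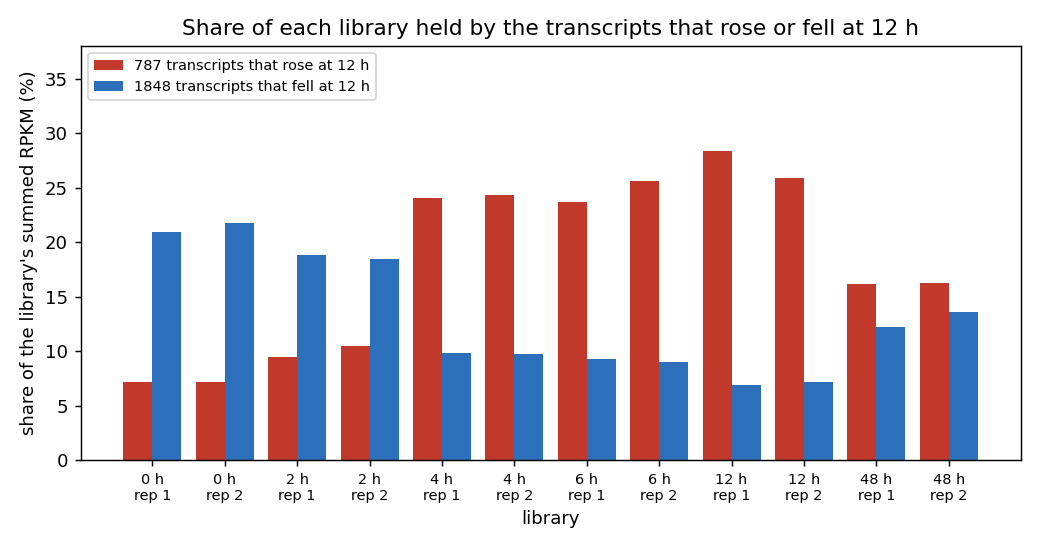
Share of each library's summed RPKM, in percent, held by the 787 transcripts that rose at 12 h (red) and by the 1848 that fell (blue). The red bars stand near 7% at 0 h and at 25.9% or more at 12 h, and the blue bars run from 20.9% or more to 7.18% or less.

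Few transcripts carried most of the gain. Summed over the 787 rises, mean RPKM increased by 302875. The 2 largest gains made up 22.4% of this sum, the 10 largest 46.3% and the 20 largest 58.2%. The losses summed to −192600 RPKM and were spread more widely, with 7.95% in the 2 largest, 26.4% in the 10 largest and 39.2% in the 20 largest. A fixed number of transcripts is a smaller part of the 1848 falls than of the 787 rises, which favours this difference. Both list lengths changed with the scaling of the libraries. Of the 20 most abundant transcripts at 12 h, 10 were among the 20 most abundant at 0 h. Rises made up 10 of the former and falls 7 of the latter, against 5.51% and 12.9% of all transcripts, but a set taken for its high level at one of the 2 times favours these directions. The 10 largest gains held 2.67% and 2.78% of summed RPKM at 0 h and 12.5% and 11.5% at 12 h. At 48 h they held 5.40% and 6.00%. These 10 were chosen for their gain from 0 h to 12 h, which favours a share between those 2 times at any other time.

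The largest gain was that of XM_002168126.2, a predicted mRNA. The 0 h libraries read 3503 and 3942 RPKM and the 12 h libraries 44764 and 41946 RPKM, where it was the most abundant transcript of all after ranking 45th at 0 h. The 12 h libraries were close to each other and far above both 0 h libraries. The ratio of the means was 11.6 and the log2 fold change 3.54 (SE 0.34, limma adjusted p = 3.56e-04). It was as low at 2 h as at 0 h in one library, with 3362 and 6890 RPKM, and had reached 50207 and 49669 RPKM by 4 h. It read 50120 and 59271 RPKM at 6 h and 5075 and 8526 RPKM at 48 h. The high level thus spanned the libraries of 4, 6 and 12 h and was absent from those of 2 h and 48 h.

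The second gain was that of XR_181933.1, a predicted non-coding RNA. Its 0 h libraries read 5522 and 7473 RPKM and its 12 h libraries 37364 and 31842 RPKM. The rise was 2.42 on the log2 scale (SE 0.23, limma adjusted p = 3.45e-04). It moved from rank 17 to rank 2, and the ratio of its means was 5.33. Its course differed from that of XM_002168126.2. It read 11905 and 14081 RPKM at 2 h, 9374 and 12720 RPKM at 4 h, and 3385 and 2996 RPKM at 6 h, below both 0 h libraries. At 48 h it was still high, at 26357 and 32607 RPKM. From 6 h to 48 h, a comparison that uses neither 0 h nor 12 h libraries, its log2 fold change was 3.20 (SE 0.23, adjusted p = 6.9e-05), while that of XM_002168126.2 was −3.05 (SE 0.34, adjusted p = 6.22e-04).

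The largest loss was that of XM_002159017.2, a predicted mRNA and the fifth most abundant transcript at 0 h (rank 5). Its 0 h libraries read 10541 and 9812 RPKM, and those of 12 h only 2203 and 739 RPKM, which is rank 156. The log2 fold change was −2.99 (SE 0.43, limma adjusted p = 0.00168). The 12 h libraries differed from each other by more than those of 0 h, and both were far below them. It stood at 9782 and 13130 RPKM at 2 h, 6344 and 8928 RPKM at 4 h, and 4487 and 5722 RPKM at 6 h. At 48 h it read 14695 and 16796 RPKM, above every earlier library. From 6 h to 48 h its log2 fold change was 1.63 (SE 0.43, adjusted p = 0.0275).

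The second loss was that of XM_002158676.2, another predicted mRNA, with 8504 and 9117 RPKM before and 1902 and 2509 RPKM after 12 h. Its log2 fold change was −2.01 (SE 0.44, limma adjusted p = 0.00949). It moved from rank 7 to rank 97. The 2 h libraries, at 3313 and 10435 RPKM, differed from each other more than those of any other time, while the 4 h libraries read 4903 and 6334 RPKM and the 6 h libraries 3095 and 4008 RPKM. It stayed low at 48 h, at 3237 and 2826 RPKM. Leaving out 0 h replicate 2 (adjusted p = 0.0552) or 12 h replicate 1 (0.0566) ended the call, and over 23 alternative fits the adjusted p ran from 9.75e-04 to 0.0566. Median-ratio scaling gave log2 fold changes of 3.91, 2.79, −2.63 and −1.65 for these 4 transcripts in the order named, each in the same direction.

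**Figure D4:**
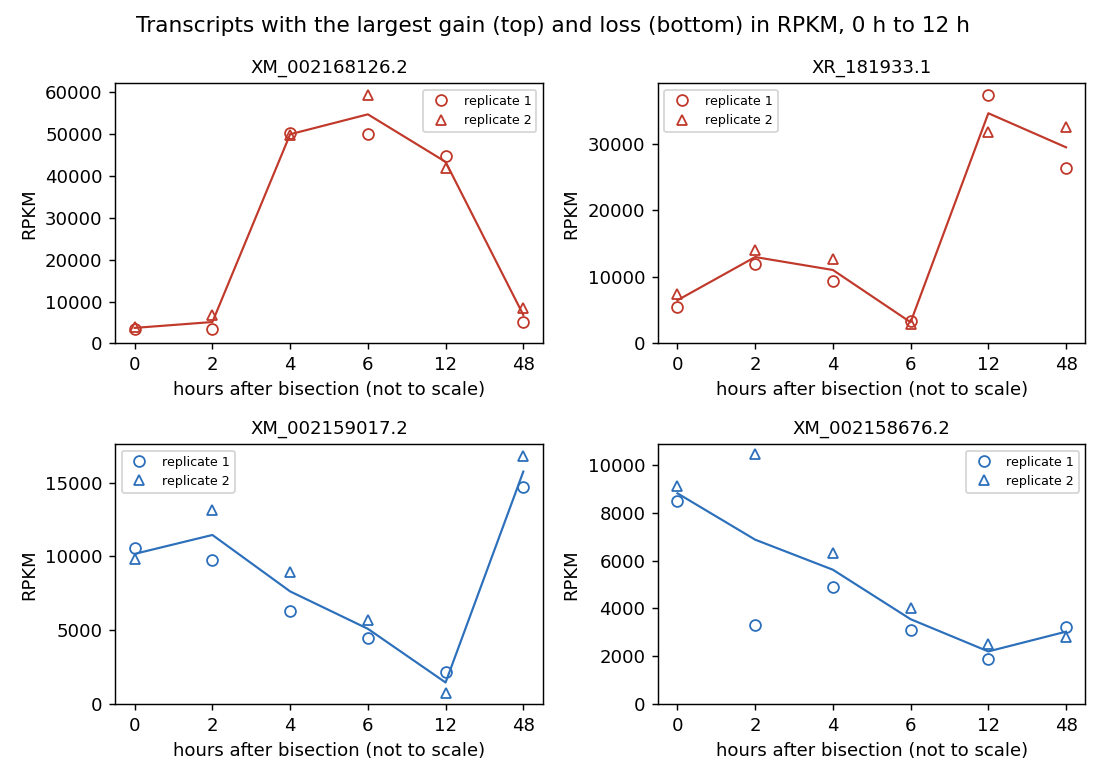
RPKM of the 4 transcripts with the largest gain (top) or loss (bottom) in mean RPKM from 0 h to 12 h, in each library (circles and triangles) with the mean of each time (lines). XM_002168126.2 is high from 4 h to 12 h, XR_181933.1 at 12 h and 48 h, XM_002159017.2 is lowest at 12 h and highest at 48 h, and XM_002158676.2 stays low at 48 h.

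Wnt3, a secreted ligand of the head organizer, read 1.98 and 2.72 RPKM in the 0 h pools and 6.71 and 8.93 RPKM in the 12 h pools, a rise of 1.39 on the log2 scale (SE 0.27, limma adjusted p = 0.00579). It moved from rank 12772 to rank 9845 of all transcripts and so remained a weak transcript in this tissue at both times. The adjusted p was 0.0606 in the fit of the 4 libraries alone, and a pseudocount of 5 gave a log2 fold change of 0.80, below the minimum.

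Predicted non-coding transcripts made up 330 of those tested, and 54 of them (16.4%) rose and 43 (13.0%) fell at 12 h, against 5.51% and 12.9% of all transcripts. After median-ratio scaling 69 rose (20.9%) and 17 fell (5.15%). They were also more abundant, with a median of the mean RPKM of 56.4 against 18.0 for predicted mRNAs, and held 10.0% and 10.2% of summed RPKM at 0 h and 14.0% and 13.7% at 12 h. XR_181933.1 alone held 0.396% and 0.536% at 0 h and 2.51% and 2.15% at 12 h, a large part of this gain. Predicted mRNAs of the 2 accession series, XM_002 and XM_004, rose in 5.22% and 5.29% of cases and fell in 12.7% and 13.3%. After median-ratio scaling these shares were 9.47% and 7.65% for rises and 4.84% and 6.23% for falls. Their median mean levels were 24.0 and 10.6 RPKM.

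A small set of transcripts went between near absence and clear presence. Taking below 0.1 RPKM in both libraries as absent and at least 5 RPKM in both as present, 12 transcripts appeared between 0 h and 12 h and 18 were lost. Those that appeared had mean levels of 6.37 to 1580 RPKM at 12 h, with a median of 56.9. Those that were lost had mean levels of 8.10 to 378 RPKM at 0 h, with a median of 20.3. XM_004 accessions made up 6 of the 12 and 14 of the 18, against 5424 of the 14283 tested. These counts rested on single libraries: 102 transcripts appeared when 0 h replicate 1 was left out, 25 when it was 12 h replicate 1 and 23 when it was 12 h replicate 2. The count of lost transcripts lay between 38 and 62 when any 1 of the 4 libraries was left out, since a single library then decided presence or absence. Values near 0 also depend on how reads were shared among similar transcripts.

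The other times show when these 30 transcripts had the 12 h state. Of the 12 that appeared, 4 were already present in both libraries at 2 h, 7 at 4 h and 9 at 6 h, while at 48 h 4 were present and 4 absent in both. Of the 18 that were lost, 1 was absent from both libraries at 2 h, 7 at 4 h and 5 at 6 h. At 48 h, 6 of the 18 were absent and 6 present in both libraries. Others were still in their 0 h state. At 2 h, 4 of the 12 were absent from both libraries and 10 of the 18 were present in both. At 4 h and again at 6 h, 0 of the 12 were absent from both and 2 of the 18 were present in both. The rest had intermediate or unequal libraries at these times.

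Along the series, the level of the transcripts that rose by 12 h was already high at 4 h. Their median level was 18.3 RPKM at bisection, 26.5 after 2 h, 55.8 after 4 h, 56.1 after 6 h, 72.5 after 12 h and 42.7 after 48 h. For the transcripts that fell it was 32.6, 23.1, 15.9, 15.5, 11.5 and 13.2 RPKM in the same order. All transcripts tested had medians of 20.6 RPKM at 0 h and 16.5 at 12 h. Each comparison with 0 h shares the 0 h libraries, so its values are given side by side only. The median log2 fold change of the rises was 0.391 after 2 h, 1.32 after 4 h, 1.34 after 6 h, 1.67 after 12 h and 0.992 after 48 h. That of the falls was −0.435, −0.993, −1.01, −1.36 and −1.22. For all transcripts tested it was −0.106, −0.283, −0.300, −0.319 and −0.385.

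**Figure D5:**
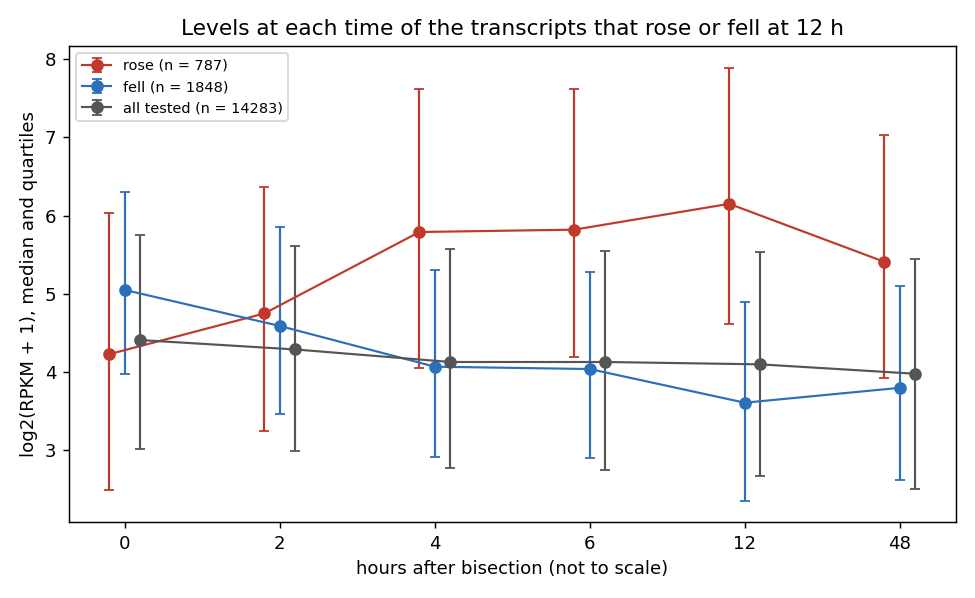
Median (points) and quartiles (bars) of log2(RPKM + 1) at each time for the 787 transcripts that rose at 12 h (red), the 1848 that fell (blue) and all 14283 tested (grey). The red median climbs from 4.23 at 0 h to 6.15 at 12 h with its largest step between 2 h and 4 h, and the blue median declines from 5.05 to 3.61.

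The means of the 2, 4, 6 and 48 h libraries did not enter the 12 h calls, although these libraries shared in the filter and in the estimate of the spread, and they give the timing without shared controls. From 2 h to 4 h, 475 transcripts rose and 345 fell, or 3.33% and 2.42% of those tested. Of the 787 transcripts that rose at 12 h, 282 rose at this step (35.8%) and 1 fell. They were 59.4% of all rises of the step. Of the 1848 that fell at 12 h, 207 fell at this step (11.2%, and 60.0% of its falls) and 1 rose. Among the 11648 transcripts called in neither direction at 12 h, 192 rose (1.65%) and 137 fell (1.18%). Without regard to the call, 86.3% of the 12 h rises were higher at 4 h than at 2 h, against 37.0% of all transcripts, and 88.1% of the 12 h falls were lower, against 63.0%. After median-ratio scaling the step held 427 of the 1293 rises (33.0%, against 4.51% of all transcripts) and 93 of the 768 falls (12.1%, against 1.32%). The counts of 282 and 207 were 139 and 75 when 4 h replicate 1 was left out, 139 and 89 when it was 4 h replicate 2, and 158 and 83 when it was 2 h replicate 1. Leaving out 2 h replicate 2 gave 110 falls. A transcript with a small spread passes both tests more easily, and the part of this in the counts was not tested.

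From 6 h to 48 h most of the transcripts that had risen at 12 h had no call, and the called ones went in both directions. The median log2 fold change of the list was −0.288, against −0.117 for all transcripts. Over all transcripts, 682 rose (4.77%) and 1251 fell (8.76%) at this step. Of the 787 that rose at 12 h, 213 fell (27.1%) and 91 rose (11.6%). Of the 1848 that fell at 12 h, 111 rose (6.01%) and 179 fell (9.69%). After median-ratio scaling 262 of 1293 rises fell at this step (20.3%, against 7.49% of all) and 173 rose (13.4%, against 6.06%), while of the 768 falls 82 rose (10.7%) and 78 fell (10.2%). Without 6 h replicate 2 the count of 213 was 139, and without 48 h replicate 1 that of 111 was 183.

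Both steps together sort the rises into courses, given here beside the share of the same course among the 11648 transcripts not called at 12 h. Here and for the falls below, each group was chosen on libraries that also give its medians. The medians are thus a description only. A group of 159 transcripts (20.2%, against 0.919%) rose from 2 h to 4 h and fell from 6 h to 48 h; its median level was 43.8 RPKM at bisection and 43.4 after 2 h, then 189 after 4 h and 175 after 12 h, and 41.6 after 48 h. Another 119 (15.1%, against 0.713%) rose from 2 h to 4 h with no call at the later step, with medians of 52.3 RPKM after 2 h, 164 after 4 h, 189 after 12 h and 112 after 48 h. A further group of 87 (11.1%, against 3.85%) had no call from 2 h to 4 h and rose from 6 h to 48 h, through 9.88 RPKM at bisection, 17.5 after 6 h, 36.2 after 12 h and 63.9 after 48 h. The largest group, 363 transcripts (46.1%, against 86.9%), passed at neither step, and its medians were 13.8 RPKM at 0 h, 31.7 at 4 h and 42.7 at 12 h. Over all transcripts tested, these courses made up 1.87%, 1.41%, 4.10% and 83.3% in the order given.

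Among the 1848 falls, 1413 (76.5%, against 86.9% of the uncalled) passed at neither step, with medians of 30.0 RPKM at 0 h, 14.4 at 4 h and 10.7 at 12 h. A group of 61 (3.30%, against 0.258%) fell from 2 h to 4 h and rose again from 6 h to 48 h, through 203 RPKM at bisection, 63.5 after 4 h, 63.1 after 12 h and 164 after 48 h. A further 145 (7.85%, against 0.884%) fell from 2 h to 4 h and had no call later, with medians of 44.9 RPKM at 2 h, 15.1 at 4 h and 18.3 at 48 h. Another 177 (9.58%, against 6.42%) fell from 6 h, at a median of 23.3 RPKM, to 48 h, at 7.28 RPKM, without a call from 2 h to 4 h. Over all transcripts tested, these courses made up 83.3%, 0.637%, 1.74% and 6.85% in the order given. As for the single steps, the shares were not tested.

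For many of the transcripts the 12 h libraries held the extreme of the series. The mean at 12 h was the highest of the 6 times in 326 of the 787 rises (41.4%), against 174 with the highest mean at 48 h, 158 at 6 h and 123 at 4 h. It was the lowest in 941 of the 1848 falls (50.9%), against 643 at 48 h and 173 at 6 h. These counts use the 12 h libraries that chose the lists, which favours an extreme at 12 h. The same counts over all transcripts were not made, so they are a description only.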

How the data were processed

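RPKM values of 12 libraries (6 times, 2 pools of animals each) were used as deposited by the authors. The submitters' processing notes name Bowtie 0.12.8; the build, the assignment of reads and any further scaling: not given in the sources used here. Per the labels' protocols, libraries were strand-specific, from poly(A) RNA read as 50 bp single ends. Depth is unknown, so no counting error is given. How reads of similar transcripts were divided is unknown, so their values are uncertain.

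Transcripts that reached 1 RPKM in 2 or more libraries were analysed as log2(RPKM + 1), which understates changes of weak transcripts. One limma 3.58.1 model (R 4.3.3) with a mean per time and a variance trend was fitted to all 12 libraries (6 residual degrees of freedom). P-values are two-sided and Benjamini-Hochberg adjusted over 14283 transcripts within each comparison. They set the difference between times against the spread between pools, which may be partly technical. That spread was shared over all 6 times, although replicates differed more at some times than at others. Python 3.11.15 was used for summaries.

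The lists, steps and naming rule were chosen with earlier results of these data known. The text names Wnt3 and, among called transcripts whose groups do not overlap, the 2 with the largest gain and the 2 with the largest loss in mean RPKM. For names, the table itself and RefSeq genes of HydraT2T_AEP were searched, where 1 of 17353 identifiers matched. The settings varied were the pseudocount (0.1 and 5), the filter (none, or 5 RPKM), the scaling (quantiles, or median ratios, with each library divided by its median ratio to the transcripts' geometric means), no variance trend, weights per library, the replicate number as a block, the 4 libraries compared alone, each library left out and adjusted p alone.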

Additional observations from a re-analysis of the deposited data

How the results depend on the processing

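Of 261 values under alternatives, 228 kept their direction and their side of the threshold or, for counts, stayed within 1.5 times. With 787 rises and 1848 falls reported, median-ratio scaling gave 1293 and 768, quantile normalization 1003 falls, a pseudocount of 5 1202 falls, the 4 libraries alone 1164 falls, and an adjusted p without a minimum fold 1190 and 3214. With single libraries left out, rises ranged from 511 to 916 and falls from 1214 to 2094. In the same way the 282 rises from 2 h to 4 h ranged from 139 to 319 (427 with median-ratio scaling), the 207 falls from 75 to 289 (93 with median-ratio scaling), the 213 falls from 6 h to 48 h from 139 to 264, and the 111 rises from 76 to 183. Transcripts that appeared ranged from 15 to 102 and were 37 with presence from 1 RPKM; those lost ranged from 38 to 62 and were 90. Wnt3 had a log2 fold change of 0.799 with a pseudocount of 5 and 1.39 (adjusted p = 0.0606) in the 4 libraries alone, and 1.21 to 1.58 with single libraries left out. Causes were not tested. Leaving out the 48 h libraries, chosen after seeing the data, gave 888 rises and 2095 falls. Same-numbered libraries did not deviate together, with 1 exception, 4 h and 6 h (correlations of −0.0976 to 0.234, 1 of 15 above 0.1), and with the replicate block 762 rose and 1804 fell. The 2 alternatives on presence do not apply to the tests, nor the 4-library fit to the steps between other times. Unknown depth leaves the precision of weak transcripts open to the replicates alone.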
